A study of Rattus norvegicus with 18 samples.

Results

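The m6A peaks called over periplocin-treated and control H9c2 cells were taken as a set: every row of the authors' deposited peak list for this comparison was a member. The list held 9170 peaks on 4879 genes, out of 19036 peaks in the lists of both compounds of the series. H9c2 (written H9C2 in the sample titles) is a clonal myoblast line from embryonic rat heart, labelled wild type and myocardial. The comparison joins 12 libraries in 4 groups of 3, periplocin IP, periplocin input, control IP and control input. A further compound, bufalin, was compared with the same control libraries. Neither the dose nor the time of treatment is in the labels, and the controls are labelled only as such. The study asked whether m6A takes part in the toxicity of both compounds to heart cells.

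N6-methyladenosine, m6A, is the most common internal base modification of messenger RNA. A nuclear complex built on METTL3 and METTL14 writes it, mostly in long internal exons and around stop codons, FTO and ALKBH5 can remove it, and reader proteins of the YTH family bind it and affect the splicing, translation and decay of the marked transcript. In MeRIP-seq, fragmented RNA is pulled down with an antibody against m6A (the IP) and sequenced beside the unselected fragments (the input), and a peak is a stretch where IP reads exceed input reads. Periplocin is a cardiac glycoside that blocks the sodium-potassium pump and thereby raises calcium in heart cells.

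The labelled cell type was checked against its markers by their mean normalized count over libraries, which the authors' deposited table gives. Of 8 measured myoblast markers, 4 had a mean of at least 100, namely Itga7 at 13160, Cdh15 at 2193, Des at 983 and Myod1 at 631, while Myf5 and Pax7 were listed at 0 and Myog had 9.98 in the authors' deposited table. Cardiomyocyte markers were low apart from Tnnt2 at 4587, Gata4 at 298 and Myh6 at 291, and Nppa, a hormone of atrial cells, had 4.45 in the authors' deposited table. Collagen genes of fibroblasts were abundant, with Col1a1 at 383423, and all 7 smooth muscle markers lay between 722 and 19767 in the authors' deposited table. None of the 7 leukocyte markers passed 69.5, none of the 7 endothelial markers passed 260, and the epithelial markers were below 8 apart from Krt8 at 1064 in the authors' deposited table. No peak lay on a leukocyte, endothelial or epithelial marker.

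The peaks were short and of modest enrichment. Their length over exon blocks ran from 92 to 1989 bases with a median of 150. A single exon block made up 5094 peaks (55.6%), and 4076 (44.4%) were split over 2 or more blocks, up to 16. Fold enrichment, read here as IP over input because the list does not define it, had a median of 1.81 and quartiles of 1.53 and 2.19. It reached 2 in 3292 peaks (35.9%), 3 in 371 (4.05%) and 4 in 44 (0.480%). All values at peaks are the authors', with no value for a single library and no standard error, so a change at a peak is printed with its p-value alone.

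The most enriched peaks sat on genes of unrelated roles. LOC100911576 led at 24.1-fold in a peak at chr15:28487445-28489881 (rn6, minus strand). Shox2, a homeobox transcription factor of the limb and of the pacemaker region of the heart, followed at 13.3-fold in a single block at chr2:164118273-164118812. Esf1, which takes part in ribosomal RNA processing in the nucleolus, had 11.7-fold, and Ahi1, a protein of the base of the primary cilium, 11.4-fold. Hsp90aa1, the stress-inducible cytosolic HSP90 chaperone, reached 8.04-fold, and Nfe2l1, a transcription factor for proteasome genes, 7.56-fold. None of these 6 peaks had an FDR of the change under 0.05.

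**Figure D1:**
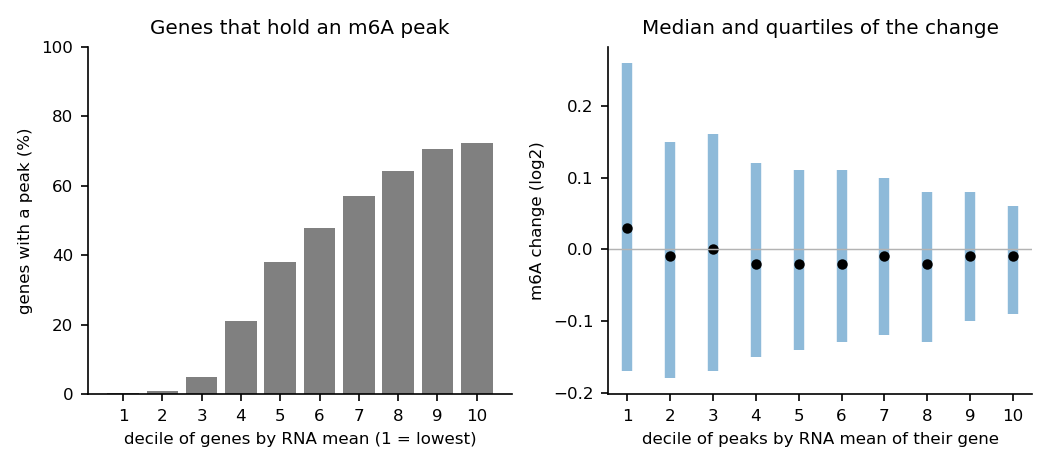
Left, share of genes (%) that hold at least 1 peak, by decile of genes ordered by mean normalized RNA count. Right, median (point) and quartiles (bar) of the m6A change (log2, periplocin against control), by decile of peaks ordered by the RNA mean of their gene. The share with a peak rose from 0.232% in the lowest decile to 72.3% in the highest, and the width between the quartiles narrowed from 0.43 to 0.15.

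Whether a gene held a peak went with how much RNA it had. In the lowest decile of genes by RNA mean (10 groups of equal size), with a median of 0.943 normalized counts, 0.232% held a peak, against 21.1% in the fourth decile, 47.9% in the sixth and 72.3% in the highest, where the median in the authors' deposited table was 10079. Genes with a peak had a median RNA mean of 2057 and tested genes without one 143 in the authors' deposited table. Median enrichment stayed between 1.76 and 1.83 over the deciles of peaks. RNA level went with whether a gene held a peak, while median enrichment was nearly level. As counts per gene are not divided by length, a long gene has more of them, and the parts of length and level were not tested.

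Some abundant gene families held few peaks. All 26 listed cytosolic ribosomal protein genes lay in the highest decile of RNA, with a median mean of 47482 in the authors' deposited table, and 4 of them held a peak, among them Rpl3, Rpl13 and Rpl7, where 72.3% of all genes in that decile did. Of 25 nuclear-encoded genes of the respiratory chain, 2 held a peak, Cycs, which encodes cytochrome c, and Uqcrc2, a subunit of complex III. None of the 7 respiratory chain genes in the highest decile did. The giant cytoskeletal linkers were at the other end, with a peak on 20 of 21 members in the highest decile. Chromatin modifiers had a peak on 17 of 19 members there.

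Peaks were unevenly shared among genes. A single peak was listed for 2645 genes (54.2%), 2 for 1226 and 3 or more for 1008, and 21 genes carried 10 or more, 266 in all. Ahnak, which encodes a very large scaffold protein under the membrane, had 25 peaks. Macf1, a linker of microtubules and actin, had 19, Cenpf, a protein of the kinetochore and nuclear matrix, 17, Golgb1, the golgin giantin, 15, the proliferation antigen Mki67 15 and the atypical cadherin Fat1 14. These transcripts are long. Peaks of one gene share its RNA and are not independent of each other.

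The change at a peak is listed as a log2 fold change whose direction the list does not state, and it was read here as periplocin over control, so a positive value stands for more m6A with periplocin. Across the 9170 peaks its median was -0.01, with quartiles of -0.13 and 0.11 and 1% and 99% points of -0.72 and 0.70. Values above 0 were listed for 4370 peaks, below 0 for 4794 and at 0 for 6. Most peaks differed little, and the median of the set lay near 0.

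At an FDR of the change under 0.05, 4 of 9170 peaks were called (0.0436%), 3 higher and 1 lower with periplocin. The FDR was listed at 1 for 9066 peaks (98.9%). Among the called peaks the highest FDR was 0.0437, and among the others the lowest was 0.184, so no peak lay near the threshold on its outer side. At an unadjusted p under 0.05 there were 309 peaks (3.37%), with 135 higher (1.47%) and 174 lower (1.90%). Evenly spread p-values without any change would put a share of 0.05 of the peaks there, which is more than was listed. Such a p alone therefore does not mark a peak as changed. The genes of the called peaks were Dlg4, Zmynd19, Rufy2 and Anp32a.

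**Figure D2:**
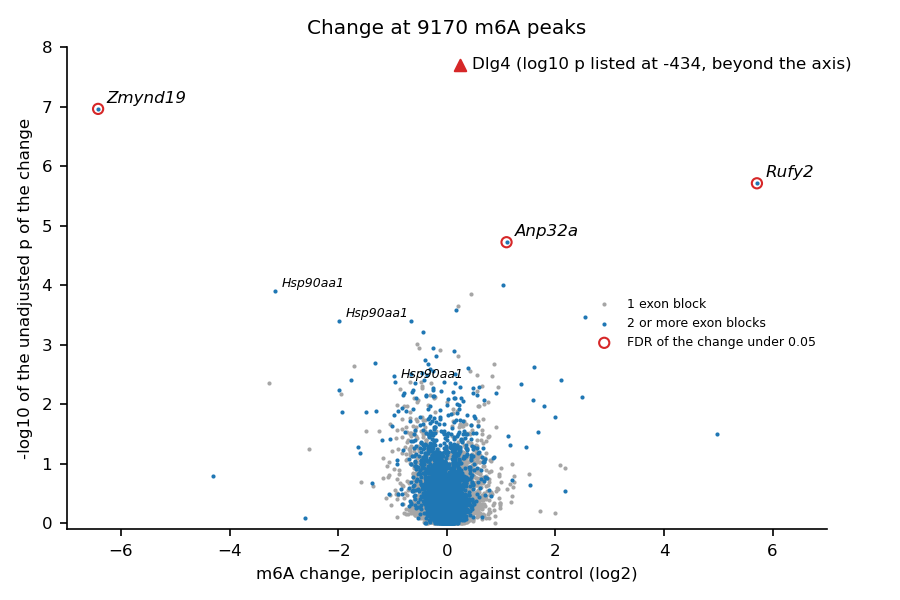
Each point is 1 of 9170 peaks, with its m6A change (log2, periplocin against control) on the x axis and -log10 of the unadjusted p on the y axis; grey points have 1 exon block, blue points 2 or more, and red circles mark an FDR under 0.05. Dlg4, whose log10 p is listed at -434, is drawn as a triangle at the top of the axis, Zmynd19 lies at -6.42 and Rufy2 at 5.71, and the 3 Hsp90aa1 peaks lie left of 0.

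Zmynd19, which encodes a MYND zinc finger protein that binds the melanin-concentrating hormone receptor, held the peak with the largest change of the set. It lies at chr3:2159141-2160553 (rn6, plus strand) in 2 exon blocks of 90 and 8 bases. Enrichment was 5.0-fold, and m6A was lower with periplocin by a log2 change of -6.42, a ratio of 0.0117 (the authors' p = 1.10e-07, FDR 0.000501). It was the only peak of this gene. Its RNA did not pass the test in the authors' deposited table, with a mean of 896 and a log2 change of -0.08 ± 0.11 (standard error, SE). The sign of every RNA change here is that of the listed log2 change; the test statistic of the authors' deposited table has the opposite sign, so the direction rests on that column and was not settled from another source. The bufalin list held no peak of Zmynd19.

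Rufy2, a RUN and FYVE domain protein of endosomal membranes, had the largest rise. The peak at chr20:27228161-27230626 (minus strand), of 55 and 93 bases, had 3.14-fold enrichment and a log2 change of 5.71, a ratio of 52.3 (the authors' p = 1.95e-06, FDR 0.00603). Its other peak, at chr20:27235156-27237585, had 1.75-fold enrichment and the opposite sign, -1.77 (the authors' p = 0.00398, FDR 0.849). The RNA of Rufy2 had a mean of 1157 and a log2 change of 0.03 ± 0.09 (SE) in the authors' deposited table. So the peaks of this gene were listed in opposite directions over an RNA level whose change was smaller than its standard error. In the bufalin list, compared with the same control libraries, the second peak was listed at -0.45 (the authors' p = 0.484) and the first was not listed.

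Anp32a, an acidic nuclear phosphoprotein that inhibits protein phosphatase 2A and binds histones, rose at chr8:67326718-67327020 (plus strand). This peak of 104 and 42 bases had 2.65-fold enrichment and a log2 change of 1.10, a ratio of 2.14 (the authors' p = 1.91e-05, FDR 0.0437). A second, more enriched Anp32a peak (4.33-fold) was listed at 0.10 (the authors' p = 0.0851). RNA of Anp32a had a mean of 6388 and a log2 change of -0.05 ± 0.05 (SE) in the authors' deposited table. For bufalin, the called peak was not listed and the second was listed at -1.49 (the authors' p = 0.00447, FDR 0.977).

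Dlg4, the postsynaptic scaffold PSD-95, was called on a small change. The peak at chr10:56627596-56636087 (plus strand), of 37 and 63 bases, had 1.29-fold enrichment, below the lower quartile of the set, and a log2 change of 0.24, a ratio of 1.18. Its log10 p was listed at -434, where the next lowest of the list was -6.96; to the digits given, -434 equals the log10 of e to the power -1000. Other peaks with larger changes on more abundant RNA had far weaker p-values, and how this value arose was not tested. Without this peak, the Benjamini-Hochberg adjustment over the rest left 2 peaks under 0.05, Rufy2 and Zmynd19, and Anp32a no longer passed. The other Dlg4 peak was listed at -0.46 (the authors' p = 0.369), and bufalin had 0.19 (p = 0.638) at the same position. RNA of Dlg4 changed by -0.01 ± 0.07 (SE) on a mean of 2089 in the authors' deposited table.

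All 4 called peaks were split over 2 exon blocks. Among the 5094 peaks of 1 block none was called, and their lowest p was 0.000141, on Spen, a repressor of transcription (chosen after its values were seen, with a change of 0.45). The share with an unadjusted p under 0.05 was 2.45% for peaks of 1 block and 4.51% for peaks of several. Median enrichment was 1.86 and 1.74. The width between the quartiles of the change was 0.29 for peaks of 1 block and 0.20 for the others.

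Large changes were mostly not called. An absolute log2 change of at least 1 was listed for 70 peaks, 33 higher and 37 lower, of which 33 had an unadjusted p under 0.05 and 3 were called. Their genes had a median RNA mean of 1447, against 2794 over all peaks, in the authors' deposited table. Pak2, a kinase of the cytoskeleton, was listed at 4.98 (the authors' p = 0.0316), and Hells, a chromatin remodeller, at -4.30 (p = 0.164). B4gat1, a glycosyltransferase that acts on dystroglycan, was listed at -3.27 (the authors' p = 0.00447), and bufalin had -2.45 (p = 0.0363) there. Atn1, the transcriptional co-repressor atrophin, was listed at 2.54 (the authors' p = 0.000339, FDR 0.310). These genes were chosen after their values were seen.

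Depth of RNA and the spread of the change went together. The width between the quartiles of the change fell from 0.43 in the decile of peaks on the least abundant genes, with a median RNA mean of 336, to 0.15 in the decile on the most abundant, with 23850. The share of peaks with an unadjusted p under 0.05 went the other way, from 1.2% to 5.93%. In the band of enrichment of 4 or more, 10 of 44 peaks (22.7%) had such a p, against 3.46% in the band from 1.5 to 2. A peak high in a single group may reach that band through that group, so band and change are not independent.

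Hsp90aa1 was the only gene with 3 peaks at an unadjusted p under 0.05, and all of its peaks were lower with periplocin. The peak at chr6:135112011-135112793 (minus strand) was listed at -3.16 (the authors' p = 0.000126, FDR 0.187), the one at chr6:135110675-135111051 at -1.98 (p = 0.000407, FDR 0.310) and the one at chr6:135048102-135048676 at -0.96 (p = 0.00427, FDR 0.849). None passed the FDR. The third lies 61998 bases from the nearest of the others, under the same gene name. RNA of Hsp90aa1 had a mean of 49483 and a log2 change of 0.01 ± 0.04 (SE) in the authors' deposited table. Bufalin had -1.90 (the authors' p = 0.00138) and -0.29 (p = 0.0398) at the peaks it shared, against the same controls.

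Both of the Hsp90aa1 peaks with the larger changes belong to 26 peaks, on 14 genes, that stand at the end of the list out of genome order. The called Rufy2 peak is also among them, and so is the Hells peak. The median absolute change was 0.56 in these 26 peaks and 0.12 in the other 9144, and it reached 1 in 11 of the 26 (42.3%) and in 59 of the 9144 (0.645%). The sources used here do not say what sets these rows apart. Cttn, which encodes the actin-binding protein cortactin, had the lowest p after the called peaks, and it stands there too, at 1.04 (the authors' p = 0.0001, FDR 0.184; chosen after its values were seen).

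Some peaks cannot be tied to 1 gene. A base was shared with a peak of another gene name by 60 peaks on 46 names, and 28 of these were protocadherin peaks, whose genes share their last exons; their changes lay between -0.49 and 0.15. Fam50a, Hmgb3, Hspa8 and Llph had peaks on more than 1 chromosome. For Hmgb3, a chromatin protein of the HMG-box family, the peak on chromosome 17 was listed at -1.99 (the authors' p = 0.00589, 4.0-fold enrichment) and the one on chromosome 14 at 1.46 (p = 0.0525). These carry one gene name at places that were counted separately, and which copy the reads came from was not tested. None of the 4 called peaks shared a base with a peak of another gene name.

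**Figure D3:**
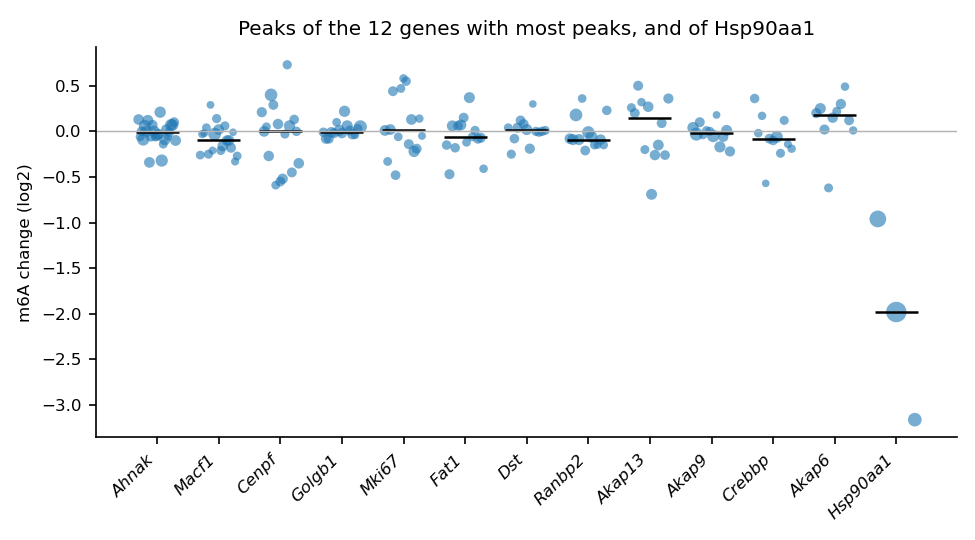
m6A change (log2, periplocin against control) of every peak of the 12 genes with most peaks and of Hsp90aa1; the area of a point grows with fold enrichment and the line is the gene's median. Peaks of Ahnak lie between -0.34 and 0.21 and those of Golgb1 between -0.08 and 0.22, while the 3 peaks of Hsp90aa1 lie between -3.16 and -0.96.

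Within the genes with most peaks, changes were small and of both signs. The 25 Ahnak peaks were listed between -0.34 and 0.21, 11 above 0 and 14 below. Macf1 had 14 of 19 peaks below 0, between -0.33 and 0.29, none with an unadjusted p under 0.05. Golgb1 was the most even, between -0.08 and 0.22. Mki67 and Cenpf spread wider, from -0.48 to 0.58 and from -0.59 to 0.73, and so did Akap13, from -0.69 to 0.50. The RNA means of these 3 were 13067, 6153 and 4811 in the authors' deposited table, against 23850 for Golgb1 and 131179 for Ahnak. The 14 peaks of Fat1 also spread wider than those of Golgb1, between -0.47 and 0.37, although its RNA mean of 30046 was higher. Range and RNA mean thus did not go together in every one of these genes.

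Changes at peaks of the same gene showed little relation to each other. Among genes with 2 peaks, both changes had the same sign in 645 and opposite signs in 580, with a median absolute difference of 0.18. Across these 1226 genes, which are not independent replicates and whose peaks share libraries and RNA, Pearson's r between the peaks was 0.03 and Spearman's rho 0.06. All peaks had 1 sign in 24 of the 229 genes with 5 or more. Jak2, the kinase of cytokine receptors, was one of them, with 6 peaks from -0.64 (the authors' p = 0.00631) to -0.05, and Lats1, a kinase of the Hippo pathway, another, with 5 peaks from -0.57 to -0.04. More than 1 peak with an unadjusted p under 0.05 was listed for 11 of 297 genes, of 1 sign in 5 and of both signs in 6.

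Some genes of the m6A machinery held peaks, and none of these peaks was called. Of 11 writers and erasers in the RNA table, 6 held a peak. All 11 had an RNA mean of at least 100, a level at which 52.7% of genes with an adjusted p held one. The 6 genes carried 19 peaks, 9 above 0 and 10 below, with a median of -0.04 against -0.01 over all peaks. None of the 19 had an unadjusted p under 0.05, which 3.37% of all peaks had. Virma, the scaffold of the writer complex, had 4 peaks between -0.33 and -0.04. Zc3h13, which holds that complex in the nucleus, had 8 between -0.10 and 0.18. The catalytic subunit Mettl3 had 1 peak at 0.17 (the authors' p = 0.518), and its partner Mettl14 had 2, at -0.20 and -0.16. No peak was listed on Fto or Alkbh5, the erasers, whose RNA means were 2534 and 1330 in the authors' deposited table. The RNA change of none of the 11 passed an adjusted p of 0.05 in the authors' deposited table.

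Among 13 m6A readers, 12 held 29 peaks, 17 above 0 and 12 below, with a median of 0.04. The readers were abundant, with a median RNA mean of 4864 in the authors' deposited table. In the decile of genes with a median mean of 3977, 70.7% of all genes held a peak. An unadjusted p under 0.05, which 3.37% of all peaks had, was listed for 2, Eif3a, a translation initiation factor subunit, at 0.07 (the authors' p = 0.0324) and Fmr1, the fragile X protein, at -0.30 (p = 0.0331). Ythdf3, a cytoplasmic YTH reader, had the largest value, -0.76 (the authors' p = 0.0692), beside others of its peaks up to 0.32. Hnrnpc, a nuclear protein that binds where m6A opens the RNA, had a 4.18-fold enriched peak at -0.47 (the authors' p = 0.524). The readers, like the writers, held no called peak, and no RNA change among them passed the test in the authors' deposited table.

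Periplocin acts on the sodium-potassium pump, and 3 of 14 listed subunits and regulators held a peak. All 3 were among the 6 members with an RNA mean of at least 100 in the authors' deposited table. Of all genes with an adjusted p and such a mean, 52.7% held a peak. Atp1b3, a beta subunit, was listed at -0.18 (the authors' p = 0.456). Slc8a1, the sodium-calcium exchanger of the heart, had 4 peaks, the highest at 0.14 (the authors' p = 0.771). No peak of these genes had an unadjusted p under 0.05, which 3.37% of all peaks had.

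Genes of calcium handling held 36 peaks on 17 of 28 members, 15 above 0 and 21 below, with a median of -0.04. All 17 were among the 21 members with an RNA mean of at least 100, where 52.7% of all genes with an adjusted p held a peak. Atp2b1, a calcium pump of the plasma membrane, had the largest change at -0.55 (the authors' p = 0.0550). Stim2, a calcium sensor of the endoplasmic reticulum, reached 0.46, and Nfatc3, a transcription factor switched on by calcium, 0.37 (the authors' p = 0.536). None of the 36 had an unadjusted p under 0.05, which 3.37% of all peaks had.

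More genes passed the RNA test than peaks passed the test of the m6A change. Units and tests differ, so these counts do not compare the size of the responses. An adjusted p under 0.05 was listed for 67 of 12445 genes (0.538%) in the authors' deposited table, and 806 of 12906 had an unadjusted p under 0.05 (6.25%). Of the 67, 49 (73.1%) held a peak, where 39.2% of all genes with an adjusted p did. The called genes were abundant, with a median RNA mean of 4012 against 711 over genes with an adjusted p in the authors' deposited table. Where the mean reached 100, 48 of 59 called genes (81.4%) held a peak and 52.7% of all 9119. In the decile of genes with a median mean of 3977, near the 4012 of the called genes, 70.7% of all genes held a peak, close to the 73.1% of called genes. In bulk RNA, more cells that express a gene and more RNA per cell cannot be told apart.

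**Figure D4:**
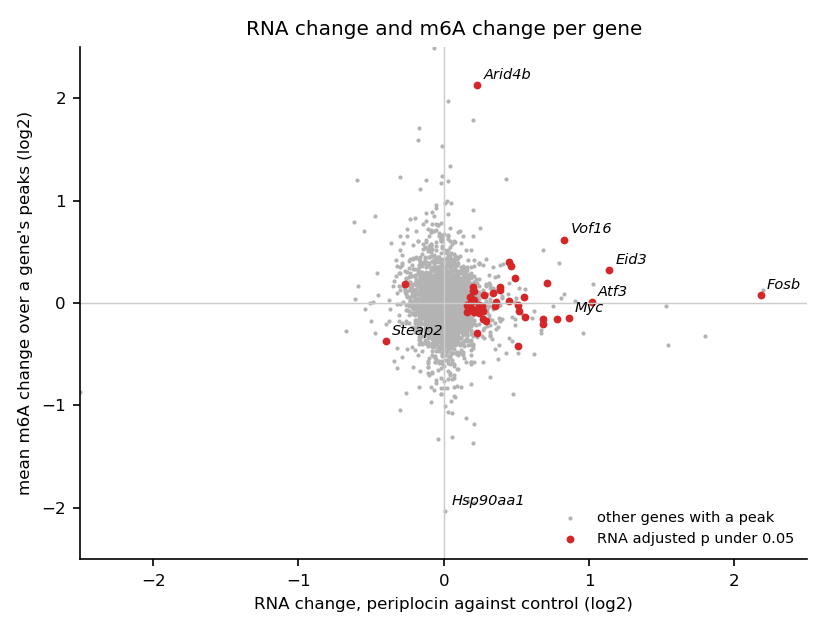
Each point is a gene with a peak, with its RNA change (log2) on the x axis and the mean m6A change over its peaks (log2) on the y axis, both periplocin against control; red marks an RNA adjusted p under 0.05. Axes end at 2.5 in either direction, which leaves 14 genes outside and 4865 drawn; Fosb has the highest RNA change among red points drawn, 2.18, with an m6A change of 0.08.

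The RNA-called genes did not share an m6A change. They carried 177 peaks, of which none was called, 9 (5.08%) had an unadjusted p under 0.05, 87 were above 0 and 90 below. The share with such a p was 3.37% over all peaks and 4.23% and 5.93% in the highest deciles of peaks by RNA mean. Of the 47 genes with higher RNA, the mean change over peaks was above 0 in 24 and below 0 in 23. The 2 with lower RNA were Steap2, a metal reductase, with RNA at -0.40 ± 0.08 (SE) in the authors' deposited table and m6A at -0.37, and Itga4, an integrin subunit, with RNA at -0.27 ± 0.07 (SE) in the authors' deposited table and m6A at 0.19. Over 4877 genes, which share libraries and are not replicates, the mean m6A change and the RNA change had a Pearson's r of -0.04 and a Spearman's rho of -0.09. The sources used here do not say whether the RNA table was made from input or IP libraries. If input libraries were used, the same reads may enter both changes with opposite signs, and this was not tested.

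Immediate early genes, transcription factors and signal regulators switched on within minutes of a stimulus, were the list with most RNA calls. Of 30 listed, 10 had higher RNA with periplocin at an adjusted p under 0.05 in the authors' deposited table, where 0.538% of all genes passed in either direction. The list was chosen with earlier results of these data known, so this count gives no independent support. Its median RNA mean was 2099, against 711 over genes with an adjusted p. Of the 10, 9 held 11 peaks, 7 above 0 and 4 below, from -0.42 to 0.49. The lowest p of these peaks was 0.109. The whole list held 32 peaks on 22 members with a median of 0.03. None of the 32 had an unadjusted p under 0.05, which 3.37% of all peaks had. Dusp1, a phosphatase of MAP kinases, was listed at -0.42 (p = 0.109), and its RNA rose by 0.51 ± 0.08 (SE, adjusted p = 7.62e-07) in the authors' deposited table. Klf4, a zinc finger transcription factor, had peaks at 0.23 and 0.49, and its RNA rose by 0.46 ± 0.12 (SE, adjusted p = 0.0278) in the authors' deposited table. Fos, a subunit of AP-1, had 2 peaks up to 0.29, and its RNA change of 1.03 ± 0.39 (SE) did not pass the test in the authors' deposited table.

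Genes with the largest RNA changes followed the same pattern. Fosb, a further AP-1 subunit, rose by 2.18 ± 0.22 (SE, adjusted p = 1.49e-19) in the authors' deposited table, and its single peak was listed at 0.08. Atf3, a stress-induced transcription factor, rose by 1.02 ± 0.23 (SE) in the authors' deposited table with a peak at 0.01. Myc, a driver of growth, rose by 0.86 ± 0.12 (SE) in the authors' deposited table with a peak at -0.15. Ppp1r15a, which helps to reverse the block of translation under stress, rose by 0.78 ± 0.15 (SE) in the authors' deposited table with a peak at -0.16. None of these peaks had an unadjusted p under 0.05.

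Fosl1, an AP-1 subunit, rose by 0.71 ± 0.11 (SE) in the authors' deposited table with a peak at 0.20. Klf6 rose by 0.55 ± 0.09 (SE) in the authors' deposited table with peaks at -0.02 and 0.14. Edn1, which encodes the vasoconstrictor endothelin-1, rose by 0.68 ± 0.13 (SE) in the authors' deposited table with a peak at -0.16. Nlrp3, the sensor of an inflammasome, had 4 peaks, all below 0 and from -0.59 to -0.04, over RNA that rose by 0.68 ± 0.17 (SE) in the authors' deposited table. Zfand2a, a stress-induced zinc finger protein, had peaks at -0.19 and -0.10 over a rise of 0.56 ± 0.11 (SE) in the authors' deposited table. For these genes the RNA rose and the peaks were listed on both sides of 0.

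Eid3 and Vof16 each had 1 peak, at 0.32 and 0.62, over RNA rises of 1.14 ± 0.25 and 0.83 ± 0.15 (SE) in the authors' deposited table. Neither peak had an unadjusted p under 0.05. Pcdhga8, with an RNA mean of 6.52 and a listed change of 6.17 ± 1.66 (SE) in the authors' deposited table, is a protocadherin whose peak shares bases with those of other protocadherins, so its peak cannot be tied to it. Arid4b, a subunit of a histone deacetylase complex, had the largest m6A changes among RNA-called genes, with peaks at 2.10 (p = 0.00398, FDR 0.849) and 2.17 (p = 0.117), and its RNA rose by 0.23 ± 0.06 (SE, adjusted p = 0.0450) in the authors' deposited table; it was chosen after its values were seen. The bufalin list held no peak at these positions.

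The 18 RNA-called genes without a peak included 11 with a mean of at least 100 in the authors' deposited table. Ppp1r10, a nuclear regulator of protein phosphatase 1, rose by 0.65 ± 0.09 (SE), and Rgs2, a brake on G-protein signalling, by 0.55 ± 0.10 (SE) in the authors' deposited table. Thbs1, the matrix protein thrombospondin-1, rose by 0.23 ± 0.05 (SE) on a mean of 126663 in the authors' deposited table without a listed peak. The small heat shock protein Hspb1 fell by 0.20 ± 0.05 (SE) on the log2 scale in the authors' deposited table. These were chosen after their values were seen.

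**Figure D5:**
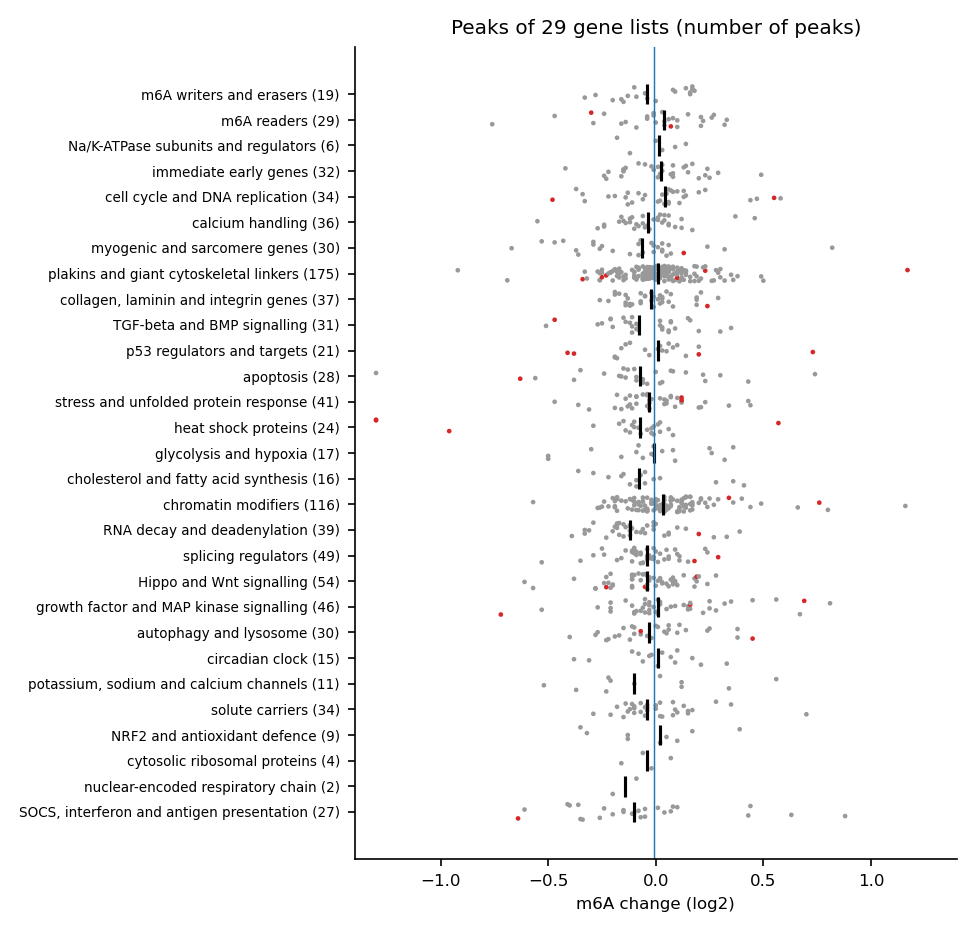
m6A change (log2, periplocin against control) of every peak on 29 gene lists, with the number of peaks in parentheses; red points have an unadjusted p under 0.05, black lines are list medians and the blue line is the median of all peaks, -0.01. The 3 peaks beyond 1.3 in size are drawn at that edge. Medians of the 25 lists with 10 or more peaks lie between -0.12 and 0.04.

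Across 29 lists of pathways and structures, 10 medians were above 0 and 19 below, and no list held a called peak. Beside the counts of members with a peak, 52.7% of genes with an adjusted p and an RNA mean of at least 100 held one. With only the most enriched peak of each member 8 medians changed sign, and with peaks enriched at least 2-fold 5 did. Medians of the 25 lists with 10 or more peaks ran from -0.12 to 0.04. The lowest was that of RNA decay and deadenylation, with 29 of 39 peaks below 0 on 14 of 25 members. There, Drosha, which cuts microRNA precursors, had 4 peaks between -0.33 and 0.20, the highest with the authors' p = 0.0324. Tnrc6a, a scaffold of microRNA silencing, had 8 peaks between -0.39 and 0.33, and Pum2, an RNA-binding repressor, 4 between -0.33 and -0.12. Ago1, an Argonaute protein, was listed at 0.39 (the authors' p = 0.221). Splicing regulators had 33 of 49 peaks below 0 and a median of -0.04. Clk1, a kinase of SR proteins, was listed at 0.29 (the authors' p = 0.0195), Srsf4 at 0.18 (p = 0.0347) and the muscle splicing factor Mbnl1 at -0.53 (p = 0.115).

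The cytoskeletal linkers held the most peaks, 175 on 21 of 24 members, 96 above 0 and 79 below with a median of 0.01. An unadjusted p under 0.05 was listed for 6 of the 175, 3 in each direction, where 3.37% of all peaks had one. The largest change of the list was among them, at 1.17 on Myh9 (the authors' p = 0.0479), a non-muscle myosin heavy chain whose other peaks reached down to -0.92. Sptan1, a spectrin of the membrane skeleton, had -0.23 (the authors' p = 0.00724) and Utrn, the dystrophin relative utrophin, -0.25 (p = 0.00741). Other peaks reached 0.05 on Sptan1 and 0.30 on Utrn. One of the Ahnak peaks had -0.34 (the authors' p = 0.0102), and Plec, the linker plectin, had 0.23 (p = 0.0240). RNA of 6 of the 24 members rose at an adjusted p under 0.05 in the authors' deposited table, where 0.538% of all genes passed. Among them were Plec at 0.28 ± 0.05 and Ahnak at 0.24 ± 0.04 (SE). The median RNA mean of the list was 24803, against 4012 over RNA-called genes and 711 over genes with an adjusted p. This list was also chosen with earlier results of these data known, so its RNA calls give no independent support.

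Chromatin modifiers held 116 peaks on 24 of 30 members, 68 above 0 and 48 below, with a median of 0.03. Hdac4, a histone deacetylase that represses muscle genes, was listed at 0.76 (the authors' p = 0.0363) and Nsd2, a methyltransferase of histone H3, at 0.34 (p = 0.0372). Ash1l, a further histone methyltransferase, reached 0.80 without an unadjusted p under 0.05. Their median was -0.02 with only the most enriched peak of each member.

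Heat shock genes had 18 of 24 peaks below 0 and a median of -0.07, where 4794 of all 9170 peaks were below 0. An unadjusted p under 0.05 was listed for 4 of the 24, against 3.37% of all peaks. Of these, 3 are the Hsp90aa1 peaks, and the other is Hspa9, the mitochondrial HSP70, at 0.57 (the authors' p = 0.0234). Hspa8, the constitutive HSP70, had peaks at -0.04 and -0.29 on different chromosomes. Genes of the unfolded protein response held 41 peaks, 19 above 0 and 22 below. Among them Ddit3, the stress factor CHOP, was listed at 0.12 (the authors' p = 0.00617), and the 5 peaks of Nfe2l1 lay between -0.09 and 0.12.

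Genes of the p53 response held 21 peaks on 13 of 19 members with a median of 0.01, 4 of them at an unadjusted p under 0.05, against 3.37% of all peaks. Tp53inp1, a promoter of p53 activity, accounted for 2, at -0.38 (the authors' p = 0.0398) and -0.41 (p = 0.0468). Sesn2, a stress-induced inhibitor of mTORC1, was listed at 0.73 (the authors' p = 0.0417) and Gadd45a, a growth arrest gene, at 0.20 (p = 0.0427). Of the 28 peaks on apoptosis genes, Birc6, an inhibitor of caspases, had -0.63 (the authors' p = 0.0417). Casp8, the initiator caspase of death receptors, had a peak as low as -1.58 without an unadjusted p under 0.05, and Cflar, its inhibitor, one at 0.74 (the authors' p = 0.293).

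Genes of muscle held 30 peaks on 10 of 26 measured members, 11 above 0 and 19 below, with a median of -0.07. Tpm2, a tropomyosin of the thin filament, was listed at 0.13 (the authors' p = 0.0468). Myh1 and Myh3, heavy chains of skeletal muscle myosin, ranged from -0.25 to 0.82 and from -0.67 to 0.32. Dmd, which encodes dystrophin, had 9 peaks between -0.53 and 0.03. Of the matrix and integrin genes, with 37 peaks and a median of -0.02, Col5a1, a fibrillar collagen, was listed at 0.24 (the authors' p = 0.0186). Among 31 peaks of TGF-beta and BMP signalling, Smad2, a transducer of TGF-beta, was listed at -0.47 (the authors' p = 0.00427).

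Cell cycle genes held 34 peaks, 15 of them on Mki67, on 12 of 35 members, with a median of 0.04. A peak of Mki67 was listed at 0.55 (the authors' p = 0.00324), beside others down to -0.48. In growth factor and MAP kinase signalling, with 46 peaks, Map4k4, an upstream kinase of JNK, was listed at 0.16 (the authors' p = 0.00437), Irs2, an adaptor of the insulin receptor, at 0.69 (p = 0.010) and Igf1r at -0.72 (p = 0.0407). The other Igf1r peak was listed at 0.67, and the 4 Irs2 peaks reached down to -0.14. In Hippo and Wnt signalling 3 of 54 peaks had an unadjusted p under 0.05, where 3.37% of all peaks had one. The Wnt transcription factor Tcf7l2 was listed at -0.05 (the authors' p = 0.0214), the transcription factor Tead1 at -0.23 (the authors' p = 0.0407) and the kinase Lats2 at 0.19 (p = 0.0490). The other Tcf7l2 peak was listed at 0.18, and the 6 Lats2 peaks ranged from -0.23 to 0.20. Changes of both signs thus stood within each of these pathways.

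Autophagy and lysosome genes held 30 peaks, of which 2 had an unadjusted p under 0.05, where 3.37% of all peaks had one. These were Atg3 at -0.07 (the authors' p = 0.0295) and Ambra1 at 0.45 (p = 0.0490). Jak2 was the only such gene among 27 peaks of the SOCS, interferon and antigen presentation list, whose median was -0.10 with 18 below 0. No unadjusted p under 0.05 was listed among the 17 peaks of glycolysis and hypoxia, the 16 of cholesterol and fatty acid synthesis, the 15 of the circadian clock, the 11 of ion channels, the 34 of solute carriers or the 9 of antioxidant defence. In the cholesterol list 12 of 16 peaks were below 0 and 4 above. Hif1a, the oxygen-regulated transcription factor, had 3 peaks between -0.50 and -0.01.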

How the data were processed

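Periplocin and control IP and input libraries of the rat line H9c2 were used. The submitters' processing notes name HISAT2, StringTie, DESeq and build rn6; their versions, the peak caller and any pooling of libraries were not given in the sources used here. In the deposited peak list, fold enrichment is a ratio, enrichment p is on the log10 scale and also given as a p-value, and the change is a log2 value; the authors' log10 p and FDR of the change, recorded as a score because one lies far outside the usual range, were used as p and FDR. In the deposited RNA table, the signal is a mean normalized count, with log2 changes, standard errors and p-values from DESeq2, per the file headers, and a test score whose sign was opposite to the change, so signs were taken from the changes and the direction of RNA changes rests on that column.

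The depth of each library and the spread between libraries were not analysed here. The labels do not say whether replicates are separate cultures, so p-values cover at most the spread between these samples; whether the p-values at peaks use that spread is unknown. Peaks were joined to the RNA table by gene name, and all 4879 names matched. Names were checked against RefSeq symbols (assembly GRCr8), of which 4728 (96.9%) were current. Thresholds were an FDR or adjusted p of 0.05. Subsets of peaks were adjusted again by Benjamini-Hochberg. Computations used Python 3.11.15, pandas 2.3.3, numpy 2.4.6 and scipy 1.17.1 and were tested on simulated data. No sequence is shown, as peak sequences of build rn6 were not used here.

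Named were the called peaks, the 6 most enriched peaks, the 6 genes with most peaks, up to 12 RNA-called genes with a peak by size of RNA change, and up to 4 members per list by size of change; members of the lists with an unadjusted p under 0.05 were also named, chosen after their values were seen. Members and lists were chosen with earlier results of these data known. Alternatives were other FDR limits, filters on enrichment, blocks, length and RNA level, 1 peak per gene, and the omission of the Dlg4 peak, of rows out of genome order and of shared positions, the last 3 added after seeing the data.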

Additional observations from a re-analysis of the deposited data

How the results depend on the processing

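The count of 4 called peaks stayed within 1.5 times its value at an FDR under 0.01 (3 peaks), under 0.1 (4), with an absolute log2 change of at least 1 (3), at an enrichment of at least 2 (3), at an RNA mean of at least 100 (4), for genes with an unadjusted RNA p of at least 0.05 (4), with the adjustment recomputed (4) and without shared positions (4). It was 309 at an unadjusted p under 0.05, and 7 of 44 peaks at an enrichment of at least 4, where Hsp90aa1 (2 peaks), Atn1, B4gat1, Hmgb3 and Sytl2 joined Zmynd19. A peak high in a single group may pass an enrichment filter through that group, so such a filter is not independent of the change. The counts behind it therefore give no support to those peaks. The count of called peaks was 0 for peaks of 1 exon block, where 125 had an unadjusted p under 0.05. It was 2 for peaks of at least 100 bases (Dlg4, Rufy2), 2 with 1 peak per gene (Rufy2, Zmynd19), 2 without the Dlg4 peak (Rufy2, Zmynd19) and 2 without the rows out of genome order (Dlg4, Zmynd19). The length filter left out the Zmynd19 peak of 98 bases, and the filter on order the Rufy2 peak. With 1 peak per gene, the called Dlg4 and Anp32a peaks were left out, as other peaks of these genes were more enriched (1.61- and 4.33-fold). In the other settings the called Anp32a peak stayed in and no longer passed the repeated adjustment. The correlation of m6A and RNA change, -0.04, was -0.03 with the most enriched peak, -0.06 at an RNA mean of at least 100 and -0.06 at a standard error of at most 0.3. RNA-called genes with a peak numbered 49, 69 when adjusted over genes with a peak, and 48 at a mean of at least 100. List medians above 0 numbered 10, 12 with 1 peak per member and 15 at an enrichment of at least 2. No paired analysis was possible because the files hold 1 value per peak or gene and comparison, none per library; leaving out a replicate could not be run for the same reason.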
